A study of Mus musculus with 6 samples.

Results

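The genes described here are 8 genes that the retinal pigment epithelium (RPE) uses, 7 for handling vitamin A (retinoids) and 1, Best1, for chloride transport, read in RNA of sorted choroid endothelial cells (ECs). They are Stra6, Ttr, Lrat, Rpe65, Rdh5, Rlbp1, Rgr and Best1. They were picked by symbol out of 22026 genes listed in each isolation, and all 8 were listed. The choice was made with earlier results of the same isolations known, including the levels at P5 and P30 and the order of the isolations. The values of the 8 genes are therefore given as a description, with no test.

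Choroid ECs line the vessels beneath the RPE. RNA was sequenced from ECs of 129/B6 mice at P5 (3 isolations) and P30 (3 isolations), with the eyes of 7 animals pooled in each isolation and no labelled difference in genotype between the ages. Every animal had been injected with anti-VE-Cadherin antibody, which binds a junction protein of ECs from the bloodstream. P5 pups received a smaller amount of antibody than P30 mice and were anaesthetized by cooling, so age and this handling cannot be told apart. After removal of the neural retina, RPE and choroid were digested together, and VE-Cadherin-positive cells were sorted, so RPE was part of the digested tissue. Values are FPKM, which count fragments relative to transcript length and to the reads of the isolation. This allows levels of different genes to be compared per length, while the depth of each isolation is unknown. Because each isolation is a bulk sample, more cells of a type and more RNA per cell cannot be told apart.

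In the visual cycle, light turns the cis form of retinal bound to opsin into the trans form, and the RPE turns it back. Stra6 is the cell surface receptor that takes up retinol from its plasma carrier, retinol binding protein, and Ttr encodes transthyretin, which travels in complex with that carrier. Lrat makes retinyl esters from retinol, Rpe65 isomerizes these esters to the cis form of retinol, and Rdh5 oxidizes that product to retinal. Rlbp1 encodes CRALBP, the protein that carries cis retinoids inside the cell, and Rgr encodes an opsin of the RPE that binds retinal. Rlbp1 and Rgr are also used by Müller glia of the retina. Best1 encodes bestrophin, a chloride channel of the basolateral RPE membrane.

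In the mm9 genome, by GENCODE vM1, Rpe65 lies on chromosome 3 from 159262197 to 159287763 and Lrat on the same chromosome from 82696501 to 82707895. Stra6 is on chromosome 9 from 57911595 to 58001803, Rlbp1 on chromosome 7 from 86519757 to 86531913, Rgr on chromosome 14 from 37850676 to 37862150 and Best1 on chromosome 19 from 10059664 to 10076123. Rdh5 lies on chromosome 10 from 128350649 to 128359944, and 25.6% of its exonic bases are shared with exons of Bloc1s1 on the same strand, so reads of these genes may have been split between them.

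The upstream sequences were searched because 7 of the 8 genes kept a common order among the P30 isolations, as described further on. The search used the 250 bases before the RefSeq start of each gene (build GRCm38.p6), which were at hand for 7 of the 8 genes in 10 windows. TAATCC, the letters preferred by the homeobox factors OTX2 and CRX, was looked for on both strands, and so were CATGTG and CACGTG, E-box letters bound by MITF, a factor of pigment cells. TAATCC was in windows of 3 genes, Rpe65, Rgr and Best1, against 7.21% of all 27025 genes in the table, and CATGTG was in windows of 2 genes, Rpe65 and Rlbp1, against 13.8%. CACGTG was in the windows of 0 of these genes, against 6.86% of all genes. Best1 was the gene of the 8 without the common order, and Ttr, which had it, was the gene without a window. A link between these letters and the order was not tested. The windows with a match are shown with the match in capitals, read 5′ to 3′ on the gene's strand.
Rpe65, chr3:159598931-159599180, plus strand: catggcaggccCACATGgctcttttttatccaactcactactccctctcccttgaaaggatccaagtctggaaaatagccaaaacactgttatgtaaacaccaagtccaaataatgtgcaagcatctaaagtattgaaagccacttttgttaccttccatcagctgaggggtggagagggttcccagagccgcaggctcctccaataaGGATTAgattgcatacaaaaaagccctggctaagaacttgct
Rgr, chr14:37049015-37049264, minus strand: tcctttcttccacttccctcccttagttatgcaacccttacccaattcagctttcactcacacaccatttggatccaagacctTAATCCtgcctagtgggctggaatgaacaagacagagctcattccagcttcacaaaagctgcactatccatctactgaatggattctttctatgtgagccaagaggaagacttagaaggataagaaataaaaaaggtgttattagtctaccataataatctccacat
Rlbp1, chr7:79387028-79387277, minus strand: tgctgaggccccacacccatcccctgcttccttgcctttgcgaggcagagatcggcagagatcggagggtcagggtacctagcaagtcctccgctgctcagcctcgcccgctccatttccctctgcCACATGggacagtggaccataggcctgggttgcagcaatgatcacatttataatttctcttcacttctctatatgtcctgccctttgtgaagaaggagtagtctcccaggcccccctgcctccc
Best1, chr19:10001634-10001883, minus strand: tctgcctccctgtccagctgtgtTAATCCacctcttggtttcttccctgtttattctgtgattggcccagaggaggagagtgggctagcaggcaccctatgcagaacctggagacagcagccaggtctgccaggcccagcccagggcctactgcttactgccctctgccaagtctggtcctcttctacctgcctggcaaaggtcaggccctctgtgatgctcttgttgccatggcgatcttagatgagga
In Rpe65 the TAATCC match is on the opposite strand, as GGATTA, and begins at base -42 from the start. The match begins at -167 in Rgr and at -227 in Best1. CATGTG was found on the opposite strand, as CACATG, from -239 in Rpe65 and from -124 in Rlbp1. The matches do not overlap one another. A match is a stretch of letters and does not show that a factor binds there.

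Every one of the 8 genes had a higher FPKM in each P30 isolation than in each P5 isolation. A total of 12481 genes reached a mean of 5 FPKM at P5, at P30 or at both, and 22.0% of them showed the same separation. The difference in mean log2(FPKM + 1), P30 minus P5, had a median of 3.64 over the 8 genes, with a range from 1.03 for Best1 to 6.79 for Rpe65, against a median of -0.10 over the 12481 genes. Because 1 was added, differences of genes near 0 are understated. The 7 genes other than Best1 passed the minimum of 5, and Rpe65 and Lrat did so only through P30.

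Uptake and transport genes had the highest levels at P5. Values are listed from replicate 1 to replicate 3 throughout. The FPKM of Stra6 was 34.1, 27.7 and 19.3 at P5, against 143, 119 and 59.2 at P30. On the log2 scale its difference was 1.89 (SE 0.45, n = 3 per age), the smallest among the genes above the minimum. The lowest P30 isolation, replicate 3, was only 1.74 times the highest P5 isolation, replicate 1. Ttr was the most abundant of the 8 in every isolation, with 89.9, 41.2 and 43.5 at P5 and 1966, 962 and 227 at P30 (log2 difference 3.77, SE 0.98, n = 3 per age). In P30 replicate 1 the FPKM of Ttr equalled 101% of that of VE-Cadherin (Cdh5), the protein used for sorting, whose FPKM ran from 1840 to 1943 at P30 and from 2878 to 3069 at P5. The same ratio was 51.4% in P30 replicate 2 and 12.4% in P30 replicate 3, and between 1.34% and 3.12% at P5.

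The enzymes that make and isomerize retinyl esters were at the bottom of the range at P5. Lrat had 1.5, 1.03 and 0.35 FPKM at P5 and 60.4, 27.9 and 7.47 at P30 (log2 difference 3.70, SE 0.87, n = 3 per age). Rpe65 was listed at 2.25 in P5 replicate 1 and at 0 in P5 replicates 2 and 3, whereas the P30 isolations had 365, 233 and 50.2. Its log2 difference of 6.79 (SE 1.03, n = 3 per age) was the largest of the 8, and no P30 value was less than 22.3 times the highest P5 value. Rdh5, the dehydrogenase that follows in the pathway, was already at 20.3, 8.66 and 11.1 at P5 and had 300.5, 177 and 76.8 at P30 (log2 difference 3.57, SE 0.66, n = 3 per age).

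The retinoid-binding proteins were close to Rdh5 at P5. Rlbp1 had 10.98, 5.53 and 10.1 at P5 and 259, 139 and 23.2 at P30 (log2 difference 3.33, SE 1.06, n = 3 per age). Its P30 isolations were spread most widely of the 8, with 11.1 times more in replicate 1 than in replicate 3, and replicate 3 was 2.12 times the highest P5 isolation. Rgr, second to Ttr in each P30 isolation, had 16.9, 7.41 and 5.95 at P5 and 841, 566 and 105 at P30 (log2 difference 5.19, SE 1.01, n = 3 per age). For Rgr the groups were farther apart, since P30 replicate 3 was 6.23 times P5 replicate 1.

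Best1 differed from the other 7 in level and in pattern. It had 2.54, 1.61 and 1.01 FPKM at P5 and 4.54, 4.18 and 4.51 at P30 (log2 difference 1.03, SE 0.24, n = 3 per age). The P30 isolations were almost level, with an SD of 0.05 on the log2 scale, against 0.67 to 1.78 for the other 7 genes. All values of Best1 were under 5 FPKM, a level the authors describe as near the detection limit. Adding 1 also lowers the SD on the log2 scale at such levels. At P30 its mean of 4.41 was the lowest of the 8, below 31.9 for Lrat and 107 for Stra6.

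**Figure D1:**
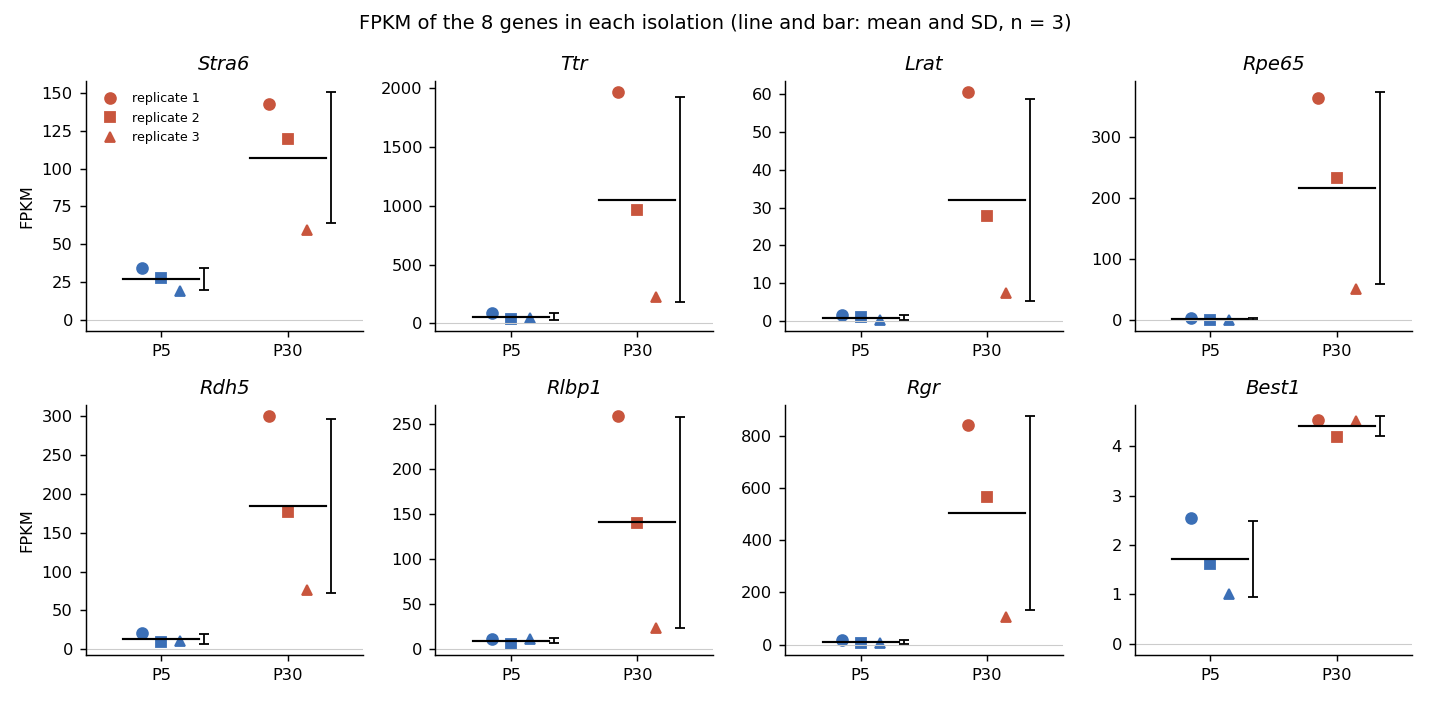
FPKM (vertical axes, linear, a scale of its own in each panel) of the 8 genes at P5 (blue) and P30 (red), where each symbol is 1 isolation, the horizontal line is the mean and the bar is the SD (n = 3). In 7 panels P30 replicate 1 is highest and replicate 3 lowest of the P30 isolations, while the P30 values of Best1 lie between 4.18 and 4.54.

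An order of isolations was shared at P30: in 7 of the 8 genes replicate 1 was highest, replicate 2 next and replicate 3 lowest, an order that 18.7% of the 12481 genes showed. In 5 of the 8, replicate 1 was at least 4 times replicate 3. An order of this kind with at least a 4-fold range in FPKM + 1 was found in 1.46% of the 12481 genes. Replicate 3 held between 8.99% and 13.7% of the level of replicate 1 for Rlbp1, Ttr, Lrat, Rgr and Rpe65. The remaining share was larger for Rdh5, at 25.6%, and for Stra6, at 41.4%, and it was 99.3% for Best1. Replicate 2 stood between 46.2% (Lrat) and 83.4% (Stra6) of replicate 1 in the 7 genes. At P5, replicate 1 was the highest isolation for all 8 genes, as it was for 35.3% of the 12481 genes.

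Summed over the 8 genes, the P5 isolations had 178, 93.1 and 91.3 FPKM, whereas the P30 isolations had 3939, 2228 and 554. The sum made up between 0.00627% and 0.0121% of all FPKM at P5. At P30 it was 0.240% in replicate 1, 0.128% in replicate 2 and 0.0353% in replicate 3. The sum therefore differed by a larger factor between P30 replicates 1 and 3 than between P30 replicate 3 and P5 replicate 1.

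Although the sums of the P30 isolations lay far apart, the shares of several genes in them were close. At P30 Ttr contributed 49.9%, 43.2% and 41.0% of the sum, and Rgr 21.4%, 25.4% and 19.0%. Rpe65 contributed 9.27%, 10.4% and 9.06%, and Lrat 1.53%, 1.25% and 1.35%. The shares of Stra6 and Rdh5 were largest in replicate 3, where the sum was smallest: Stra6 had 3.63%, 5.36% and 10.7%, and Rdh5 had 7.63%, 7.93% and 13.9%.

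At P5 the shares of Ttr, Rdh5 and Rlbp1 overlapped with those at P30, and those of the other 5 genes did not. Ttr contributed 50.4%, 44.3% and 47.7% of the P5 sums. Stra6 came next with 19.1%, 29.7% and 21.2%. Rgr had 9.48%, 7.96% and 6.52%, and Rpe65 had 1.26% in replicate 1. Taking Ttr as the reference, Rpe65 stood at 18.6% to 24.2% of Ttr at P30 and at 0% to 2.50% at P5, and Rgr at 42.8% to 58.8% and 13.7% to 18.8%. Rlbp1, by contrast, had ratios that overlapped, from 10.2% to 14.5% of Ttr at P30 and from 12.2% to 23.2% at P5. The ratio of Rdh5 also overlapped, from 15.3% to 33.8% at P30 and from 21.0% to 25.4% at P5. Lrat stood at 2.90% to 3.29% of Ttr at P30 and at 0.804% to 2.50% at P5. The ratios of Stra6 and Best1 were the ones lower at P30, from 7.28% to 26.1% against 37.9% to 67.1% at P5 for Stra6, and from 0.231% to 1.99% against 2.32% to 3.91% for Best1.

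**Figure D2:**
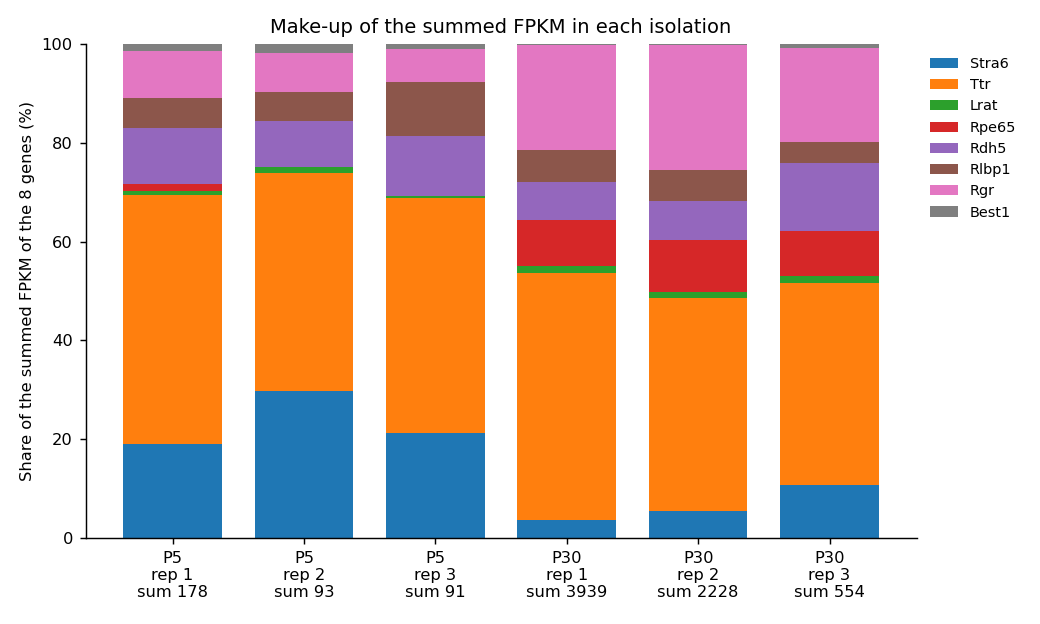
Share of each gene (vertical axis, percent) in the summed FPKM of the 8 genes, 1 bar per isolation, with the sum written below. The P30 sums run from 3939 to 554 while Rpe65 holds 9.06% to 10.4% of them, and the shares of Rpe65 and Rgr are larger and that of Stra6 smaller at P30 than at P5.

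To see whether other genes of the pathway behaved alike, 16 further retinoid genes were taken: dehydrogenases and reductases, binding proteins, an RPE opsin (Rrh), ester and fatty acid enzymes, and retinoid genes of photoreceptors. Differences between ages were tested with limma on log2(FPKM + 1) over the 12481 genes, and a gene was counted at an adjusted p (Benjamini-Hochberg) under 0.01 with at least a 2-fold difference in mean FPKM + 1. Of all genes tested, 5.89% were higher and 5.82% lower at P30 by this rule. Of the 16 genes, 15 were tested, and 0 were called in either direction. Of the 15, 5 passed the minimum only through P30 and could not be called lower. An unadjusted p under 0.05 in limma was found for 6, all 6 of them with higher values at P30. The share of all genes tested at that unadjusted p was not counted, so such counts, here and below, are not read as a rise. The median log2 difference over the list was 0.36, far below that of the 8 genes. Without P30 replicate 3, 4 genes were called (Rdh10, Rrh, Rbp3 and Abca4), and without P30 replicate 2, 1 gene (Dhrs3).

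Abundant genes among these 16 had smaller differences than 7 of the 8 genes. Dhrs3, a retinal reductase, had 266, 283 and 238 FPKM at P5 and 551, 378 and 592 at P30, with an adjusted p of 0.00631 in limma but less than a 2-fold difference (log2 difference 0.93, SE 0.18). Rdh10, which oxidizes retinol in the first step of retinoic acid synthesis, had 51.4, 46.5 and 38.6 at P5 and 184, 141 and 61.6 at P30 (log2 difference 1.35, SE 0.37, adjusted p = 0.0251 in limma). Its P30 isolations followed the order of the 8 genes. Rdh11, a retinol dehydrogenase, had a log2 difference of 0.16 (SE 0.17, adjusted p = 0.499 in limma). Rrh, peropsin, which was picked out after its values had been seen, had 4.45, 2.89 and 1.16 at P5 and 57.6, 30.3 and 8.01 at P30 (log2 difference 2.83, SE 0.69, adjusted p = 0.0165 in limma). It was called with the replicate number as a block.

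Genes that the RPE uses outside retinoid handling included several that rose. In a list of 20, 18 were tested, and 6 rose while 0 fell (limma, beside 5.89% and 5.82% of all genes tested). Of the 18, 6 passed the minimum only through P30 and could not be called lower. The median log2 difference over the 20 genes was 1.87. Kcnj13, the potassium channel of the apical RPE membrane, had 1.94, 1.85 and 0 FPKM at P5 and 68.2, 45.5 and 7.85 at P30 (log2 difference 3.91, SE 0.81, adjusted p = 0.00895 in limma). Slc16a8, the lactate transporter MCT3, had 6.71, 4.24 and 8.04 at P5 and 117, 72.7 and 27.3 at P30 (log2 difference 3.13, SE 0.50, adjusted p = 0.00331 in limma). Both followed the order of the 8 genes, and the call of Slc16a8 was lost in 4 of 16 alternative analyses. Kcnj13 passed the minimum only through P30, the age where it was high, with a mean of 1.26 FPKM at P5. In Kcnj13, 49.1% of the exonic bases are shared with Gigyf2 on the opposite strand, and its call was lost in 9 of 16 alternative analyses, among them pseudocounts of 0.5 and 5.

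Enpp2, which encodes autotaxin, rose from 70.9 ± 18.1 to 446 ± 153 FPKM (SD, n = 3, log2 difference 2.61, SE 0.29, adjusted p = 0.000762 in limma) and was called in all 16 alternatives. Mertk, the receptor with which the RPE takes up outer segments and macrophages take up dying cells, rose from 96.8 ± 7.72 to 197 ± 12.0 (SD, n = 3, log2 difference 1.02, SE 0.11, adjusted p = 0.00058 in limma), with 199, 184 and 207 in the P30 isolations and so without the order described above; with a pseudocount of 5 it was not called. Car14, a carbonic anhydrase, rose by 2.95 on the log2 scale (SE 0.54, adjusted p = 0.00546 in limma), and C1qtnf5 by 3.81 (SE 0.65, adjusted p = 0.0042 in limma). The call of Car14 was lost in 5 of 16 alternatives and that of C1qtnf5 in 4 of 16. In Car14, 17.5% of the exonic bases are shared with Aph1a on the opposite strand. All exonic bases of C1qtnf5 lie within exons of Mfrp, which was not called, so the values of C1qtnf5 and Mfrp cannot be separated. Ezr and Serpinf1, which many cell types express, had log2 differences of 0.21 (SE 0.12, adjusted p = 0.207 in limma) and 0.45 (SE 0.21, adjusted p = 0.133 in limma).

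The number of these RPE genes called depended on single isolations. It was 10 without P30 replicate 3, which had the lowest levels of the 8 genes, and 3 without P30 replicate 1. It was 2 without P30 replicate 2, 2 without P5 replicate 2 and 2 without P5 replicate 3.

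Pigment genes, which the RPE shares with melanocytes of the choroid, overlapped between the ages. Of 10 genes of melanin synthesis, 9 were tested and 0 called in limma, and 1 had an unadjusted p under 0.05. In 0 of the 10 was every P30 isolation above every P5 isolation, beside 22.0% of the 12481 genes. The P30 order of the 8 genes was kept in 8 of the 10, beside 18.7% of the 12481 genes. Dct had 151, 37.2 and 32.2 at P5 and 543, 475 and 49.9 at P30 (log2 difference 2.03, SE 0.97, adjusted p = 0.133 in limma), and Pmel had 185, 40.2 and 38.5 at P5 and 290.5, 273 and 23.6 at P30 (log2 difference 0.90, SE 1.02, adjusted p = 0.509 in limma). Tyrp1 and Mlana had log2 differences of 1.83 (SE 0.88, adjusted p = 0.136 in limma) and 2.03 (SE 0.90, adjusted p = 0.11 in limma). P5 replicate 1 and P30 replicates 1 and 2 were the high isolations. The summed FPKM of the 8 genes ran from 0.349 to 0.790 times that of the pigment list at P5, and from 1.85 to 3.86 times at P30. P5 replicate 1 thus held more pigment gene FPKM (512) than P30 replicate 3 (143), but less FPKM of the 8 genes (178 against 554).

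Rod photoreceptor genes, which the neural retina and not the RPE expresses, included 3 that rose. Of 19 rod genes, 12 were tested and 3 were called higher (limma, beside 5.89% of all genes tested). Of these 12, 11 passed the minimum only through P30 and could not be called lower, so 0 lower calls say little. The 3 called genes passed the minimum only through P30, the age where they were high. In 7 of the 19 genes, tested or not, the lowest P30 value exceeded the highest P5 value, beside 22.0% of the 12481 genes tested. The median log2 difference over the 19 genes was 2.0. Gnat1, the rod transducin, had 2.28, 1.11 and 1.12 at P5 and 98.3, 69.4 and 16.7 at P30 (log2 difference 4.35, SE 0.62, adjusted p = 0.00205 in limma). Rcvrn, recoverin, was listed at 0 in each P5 isolation and at 16.9, 9.16 and 5.54 at P30 (adjusted p = 0.00339 in limma), and its call was lost with the replicate number as a block. Rom1 and Sag, which are also abundant in rods, had log2 differences of 1.25 (SE 0.34, adjusted p = 0.0234 in limma) and 3.32 (SE 0.94, adjusted p = 0.0284 in limma).

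The order of the P30 isolations in the 8 genes was also that of 14 of the 19 rod genes, beside 18.7% of the 12481 genes. It was not particular to rod genes: 8 of the 10 pigment genes, 13 of the 20 other RPE genes and 9 of the 16 other retinoid genes had it. The summed FPKM of the 8 genes was 6.92, 5.98 and 7.69 times that of the rod list at P30, and 4.15, 3.49 and 2.23 times at P5. The number of rod genes called was 12 without P30 replicate 3, 1 without P30 replicate 2 and 1 without P5 replicate 1, and it was 0 without P5 replicate 2 and 0 without P5 replicate 3. Those 12 are not the 12 tested with all isolations. Pde6a and Pde6b were among them and passed the minimum only once P30 replicate 3 was left out.

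**Figure D3:**
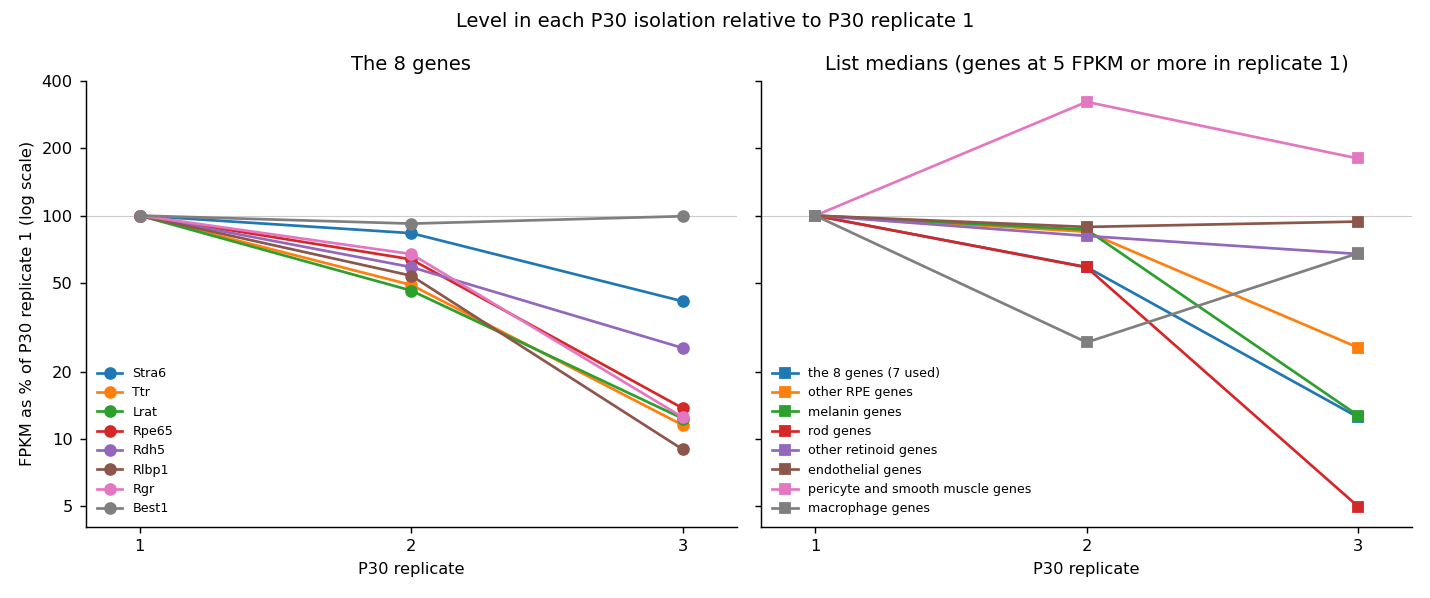
FPKM in P30 replicates 1, 2 and 3 as a percentage of replicate 1 (vertical axis, log scale), for each of the 8 genes (left) and as the median over the genes of each list with at least 5 FPKM in replicate 1 (right); lines only join values of the same gene or list. In replicate 3 the medians were 12.5% for the 8 genes, 12.7% for pigment genes, 4.99% for rod genes and 180% for pericyte and smooth muscle genes.

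Markers of other cell types were read in the same way, and their part in the levels of the 8 genes was not tested. Their counts of calls, here and in the next paragraph, stand beside 5.89% higher and 5.82% lower of all genes tested. A single call in such a short list is not read as a result about the list. The endothelial list of 10 genes had sums from 20236 to 20831 FPKM at P5 and from 28672 to 34368 at P30, with Pecam1 between 1243 and 1680, Cdh5 between 1840 and 3069 and Kdr between 2421 and 3858 in the 6 isolations. Of these 10 genes, 2 (Flt1 and Plvap) rose and 0 fell in limma, whereas with quantile normalization 0 rose and 1 (Cdh5) fell. Without P5 replicate 1, 2 or 3 the call of Plvap was lost. Of 6 Müller glia markers, 2 were tested and 1, Dkk3, was called higher at P30 (log2 difference 2.29, SE 0.43, adjusted p = 0.00633 in limma), a call lost without a trend and without P5 replicate 2, P5 replicate 3, P30 replicate 1 or P30 replicate 2. Crym, the other Müller glia marker tested, had 5.9, 2.52 and 7.38 at P5 and 19.4, 20.3 and 7.77 at P30. It was not called (log2 difference 1.41, SE 0.48, adjusted p = 0.051 in limma). Aqp4, a defining gene of Müller glia, was listed at 0 in all 6 isolations, and Slc1a3 was at most 7.09. The sum of the Müller glia list was between 22.0 and 35.8 at P5 and between 53.8 and 137 at P30. Of 8 cone genes, 1 was tested and 0 called in limma, with an unadjusted p under 0.05 for that 1. Opn1mw, Arr3 and Cnga3 were listed at 0 in all isolations, and Gngt2, which leukocytes and other cells also express, was at 133 to 241. The cone sum was between 135 and 159 at P5 and between 184 and 243 at P30.

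The pericyte and smooth muscle list ran in another order. The sums over its 10 genes were 1881, 1014 and 553 at P5, against 2236, 7223 and 4093 at P30, and 0 of the 10 followed the P30 order of the 8 genes. That order was shown by 18.7% of the 12481 genes. In limma 1 rose, Myh11 (log2 difference 3.09, SE 0.65, adjusted p = 0.00965), a call lost in 10 of the 16 alternatives. The fibroblast list of 6 genes summed to between 725 and 1193 at P5 and between 1777 and 4488 at P30, with 1 call, Dcn (log2 difference 3.27, SE 0.33, adjusted p = 0.000497 in limma), and 0 of 6 in the P30 order of the 8 genes. The macrophage list of 8 genes summed to between 1264 and 1607 at P5 and between 346 and 1069 at P30. In limma 3 of its genes (Emr1, Ptprc and Mrc1) fell and 0 rose, beside 5.82% and 5.89% of all genes tested. The number that fell was 1 without P5 replicate 1, 2 or 3, without P30 replicate 3 or without a trend, and 5 without P30 replicate 1. Ptprc was called in all 16 alternatives. The Schwann cell list of 5 genes summed to between 188 and 314 at P5 and between 859 and 1176 at P30, with 1 call, Pmp22 (log2 difference 2.0, SE 0.16, adjusted p = 0.000249 in limma), and 4 of the 5 followed the P30 order of the 8 genes.

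**Figure D4:**
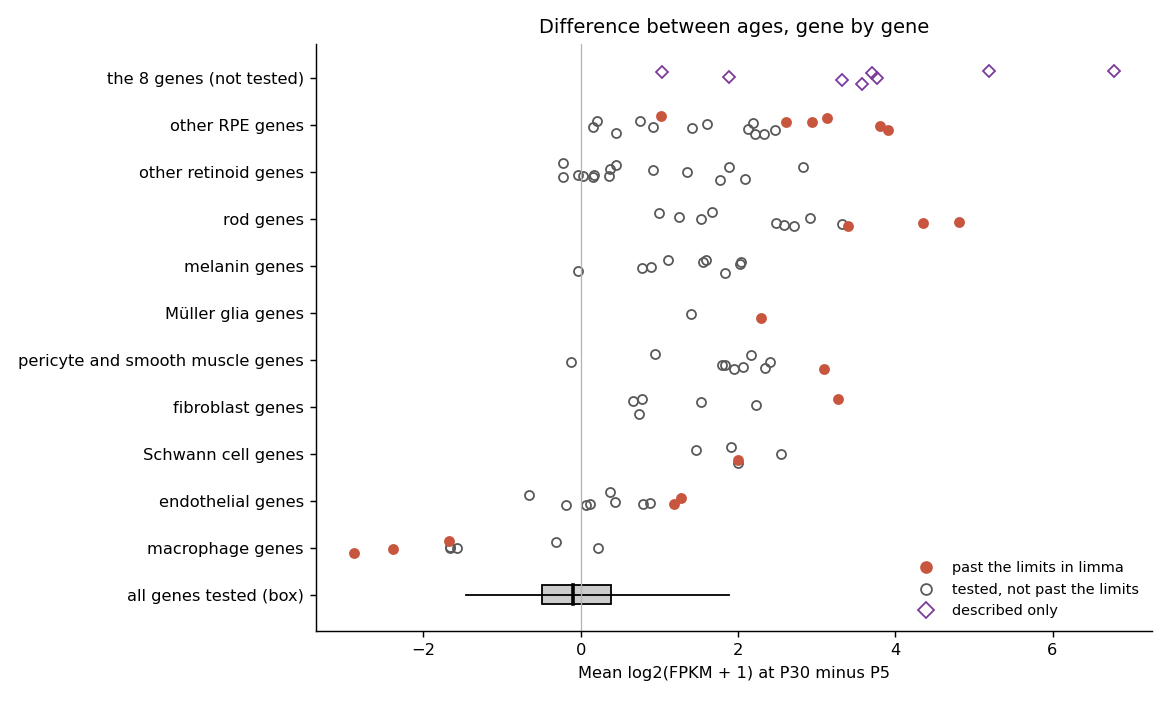
Difference in mean log2(FPKM + 1), P30 minus P5 (horizontal axis), for the 8 genes (open diamonds, described only) and for each tested gene of the other lists (filled circles, past the limits in limma; open circles, not past them); the box marks the quartiles and the line the 5th to 95th percentile of all 12481 genes tested. The 8 genes run from 1.03 to 6.79, and the median of all genes tested is -0.10.

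The genes with the most similar course over the 6 isolations were sought among the other 12474 genes tested. Each gene's log2(FPKM + 1) was centred on its own mean and compared with the mean centred profile of the 7 members above the minimum, by the root mean square difference over the 6 isolations. The median difference over all genes was 2.24. Among the members themselves it was 0.20 for Ttr, 0.28 for Lrat, 0.34 for Rdh5, 0.51 for Rlbp1 and 0.61 for Rgr, and 1.16 for Stra6 and 1.40 for Rpe65, whose changes were the smallest and the largest of the 7. The mean profile contains these 7 members, which were also chosen with the levels known. Their differences are therefore low in part by construction and are no measure of likeness against other genes. The closest gene was Slc6a13, a GABA transporter, at 0.12, with 1.01, 0 and 0 FPKM at P5 and 42.2, 27.3 and 8.04 at P30. Gnat1 followed at 0.20, then Ptgds, a prostaglandin D synthase, at 0.39, Pon1, paraoxonase, at 0.40, Mfsd2a, a lipid transporter, at 0.41, Clu, clusterin, at 0.42, Itgb8, an integrin chain, at 0.43 and Slc6a20a, an amino acid transporter, at 0.45.

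Several of these genes were abundant. Ptgds had 79.0, 28.7 and 27.3 FPKM at P5 and 2337, 1487 and 367 at P30, above Ttr in each P30 isolation. Clu had 51.1, 37.9 and 41.3 at P5 and 948, 606 and 312 at P30. Of the 50 closest among the 12474 genes compared, 4 were in the rod list, where 12 genes were tested. Another 3 were in the list of other RPE genes (18 tested) and 1 in that of other retinoid genes (15 tested). The pigment, pericyte and smooth muscle, fibroblast, macrophage, Schwann cell, Müller glia, cone and endothelial lists had 0. Only tested genes could enter, which were 1 cone gene, 2 Müller glia genes and at most 10 genes in each other list with 0. With 50 places among 12474 genes, 0 from lists this short says little, and 1 gene is not read as a result.

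**Figure D5:**
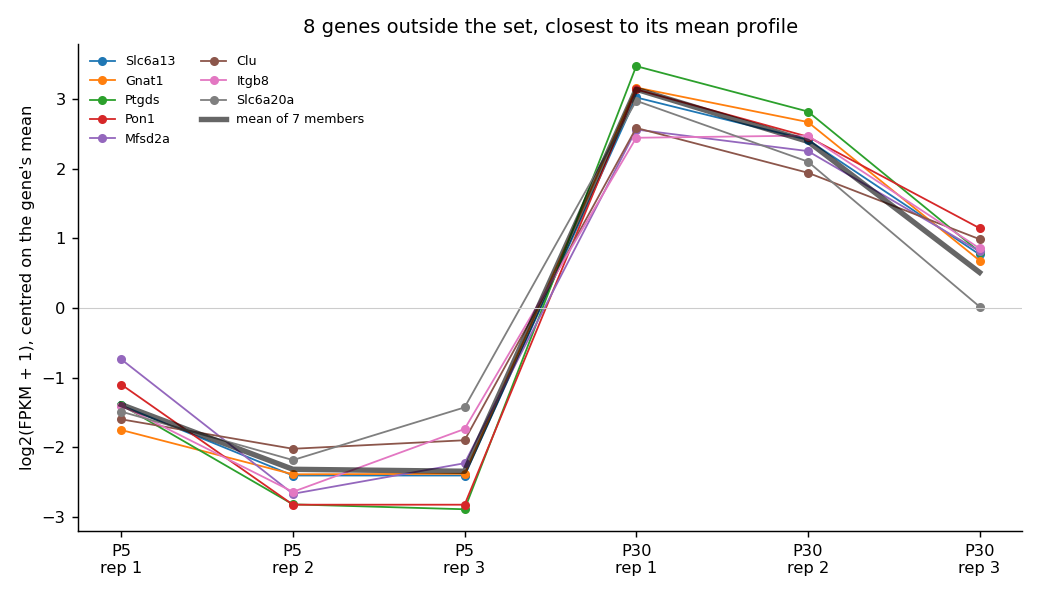
log2(FPKM + 1) in the 6 isolations (horizontal axis), centred on each gene's mean (vertical axis, log2 units), for the 8 genes outside the set with the smallest root mean square difference from the mean profile of 7 members (thick line); lines only join values of the same gene. The differences run from 0.12 for Slc6a13 to 0.45 for Slc6a20a.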

How the data were processed

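RNAseq values covered 3 choroid EC isolations at P5 and 3 at P30; groups were taken from the sample titles. The authors used TopHat to align reads to mm9, calculated FPKM with CuffLinks (GC and upper quartile normalization), and deposited 1 FPKM value per gene and isolation. Versions of these tools and the annotation are not given in the sources used here; the submitters' processing notes also name CASAVA 1.8.2. Depth is unknown: in log2 ratios of values under 2 FPKM, no bin of 0.05 held more than 4.58% of genes, so whole reads were not recovered.

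limma 3.58.1 (R 4.3.3, lmFit, eBayes with trend, no block) was run on log2(FPKM + 1) over the 12481 genes whose mean reached 5 FPKM at either age, and tested on simulated data. Genes named were the members, each list's 4 most abundant and called genes, 3 endothelial markers and the 8 closest profiles. Other cell type genes are given by sums, and some of them are also named. Values of 2 listed genes are not reported here. Members and lists were chosen with earlier results of these data known. Alternatives were 2 other pseudocounts, 3 filters, no trend, another fold, an adjusted p of 0.05, quantile normalization, a replicate block and leaving out each isolation. P-values set the age difference against the spread between pooled isolations, which eBayes adjusts across genes, and not against the spread between animals. The SE of each of the 8 genes comes from its own SDs on the log2 scale, without that adjustment.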

Additional observations from a re-analysis of the deposited data

How the results depend on the processing

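The median log2 difference of the 8 genes was 3.64 and stayed between 3.06 and 4.40 when 1 isolation was left out, and the P30 order held in 7 of 8 with quantile normalization. At an adjusted p under 0.05, 1130 genes were higher at P30 in place of 735, with 3 other retinoid and 5 rod genes. Without a trend, 3 other RPE genes were higher in place of 6; the cause was not tested. With 1 isolation left out, calls ranged from 396 to 849 higher and from 291 to 754 lower over all genes, from 0 to 4 for other retinoid, from 2 to 10 for other RPE and from 0 to 12 for rod genes, with fewer samples in the fit. Leaving out an isolation also changed which genes passed the minimum. The lowest counts over all genes were those without P5 replicate 3 (higher) and P5 replicate 2 (lower).

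With the replicate number as a block, 585 genes were higher and 524 lower, with 1 other retinoid gene (Rrh), 6 other RPE genes and 2 rod genes. Same-numbered isolations had correlations of their deviations between -0.0905 and -0.0305, and none matched its own number best, so the labels give only a shared number. FPKM gives no counting error, and a gene listed at 0 is not shown to be absent.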
